A study of Homo sapiens with 24 samples.

Results

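The dex response of GLP-depleted Nalm6 cells was taken from 6 RNA-seq libraries of 24, namely the 3 biological replicates of shGLP cells treated with dexamethasone (dex) and the 3 treated with ethanol, the vehicle. Nalm6 is an established B-ALL (B-cell acute lymphoblastic leukemia) cell line. The cells carried a lentiviral shRNA against GLP (gene EHMT1) and were kept for 8 h with dex at 100 nM or with ethanol. The other 18 libraries came from cells with a nonspecific shRNA (shNS) or with shRNA against G9a (EHMT2) or HP1γ (CBX3), under the same treatments and with 3 replicates each. All populations, the shNS control included, had thus been transduced, and they were puromycin-selected pools rather than clones. A single shRNA sequence per target was used, so an effect of GLP loss cannot be told apart from another effect of that shRNA or of that pool. The labels say that the replicates were performed on different days but not which day a replicate number marks, and dex and ethanol libraries of the same number were compared.

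Glucocorticoids (GC) bind the glucocorticoid receptor (GR), which moves to the nucleus, binds DNA elements and raises or lowers the transcription of nearby genes with the help of coregulators. G9a and GLP are related lysine methyltransferases, best known for placing methyl groups on lysine 9 of histone H3, a mark of silent chromatin, and both also serve as coactivators for a subset of GR target genes. HP1γ binds methylated lysine and is recruited by the automethylated forms of G9a and GLP. In lymphoid cells, GCs stop proliferation and cause cell death, the basis of their use in B-ALL.

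The 6 shGLP libraries held 9289533 to 11109523 counts, against 9289533 to 14387770 over all 24. Precursor B-cell markers summed to 2272 to 2711 CPM (counts scaled to library size with upper quartile factors) in the shGLP libraries, most of it RAG1, while CD79B, CD22 and DNTT, 3 of the 12 markers, were at 0. T-cell markers summed to at most 0.362 CPM with 5 of 7 at 0, and the 4 epithelial markers were all at 0. Myeloid markers summed to 26.8 to 34.4 CPM with ethanol and 21.1 to 30.5 CPM with dex, with 3 of 7 at 0 and most of the sum in LYZ, NK markers to 12.9 to 15.8 CPM, erythroid markers to at most 0.514 CPM and fibroblast markers to 1.85 to 4.31 CPM. In the shNS libraries the precursor B-cell sum was 1581 to 1834 CPM and the myeloid sum 3.07 to 8.25 CPM, both below every shGLP library, and the part of these gaps in the differences between the populations was not tested. The targeted gene was followed by a single tested EHMT1 accession of the 6 in the table, NM_001354259 (GRCh37, chromosome 9, 140513444 to 140764468), whose libraries held 18 to 34 reads in shGLP and 29 to 50 in shNS cells. It stood at 2.98, 1.66 and 3.22 CPM in the ethanol libraries of shGLP replicates 1, 2 and 3, and 2.23, 2.35 and 3.08 CPM in their dex libraries. It averaged 2.59 ± 0.605 CPM (SD, n = 6 libraries of 3 replicates) in shGLP and 3.69 ± 0.625 CPM in shNS cells, or 71.8%, and was lower in 3 of 3 replicates (exact paired permutation test, 2-sided p = 0.25, the smallest that 3 replicates allow). In the fit across all transcripts the log2 difference was -0.51 (SE 0.15, edgeR adjusted p = 0.0255, and 0.0656 without the replicate term). That call was also lost without replicate 1, 2 or 3 of all groups (edgeR adjusted p = 0.0555, 0.374 and 0.132). With dex, EHMT1 had a log2 fold change of -0.02 (SE 0.22) in shGLP cells and its libraries overlapped. These values cover 1 of the 6 EHMT1 accessions, at few reads, and do not measure the depletion of GLP as a whole. The study reports, by immunoblot and RT-qPCR, that GLP was efficiently depleted in these cells at the protein and the mRNA level. EHMT2 was not analysed here.

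Dex changed 334 of 10167 tested transcripts in shGLP cells, or 3.29%, by edgeR's quasi-likelihood F test (Benjamini-Hochberg adjusted p up to 0.05). These belonged to 327 genes. Of them, 198 (1.95%) rose and 136 (1.34%) fell, and 1453 transcripts had an unadjusted p below 0.05. The rises were larger than the falls, with a median log2 fold change of 0.85 against -0.29. They also lay on less abundant transcripts, with a median of 23.99 CPM against 227 CPM, levels that are not scaled for length. Of the falls, 101 of 136 were below 1.3-fold, whereas 23 of the 198 rises were. At 2-fold or more, 85 transcripts (0.836%) of 80 genes were left, of which 84 (0.826%) rose and 1 (0.00984%), IL1B, fell. All 334 transcripts moved the same way in 3 of 3 replicates, and the dex and ethanol libraries did not overlap for 311 of them, against 18.2% of all tested transcripts. Both counts follow largely from the calls, which rest on the same libraries, and are no separate support. The count without a fold requirement depended on the replicate term: without it, 147 transcripts were called, 120 higher and 27 lower. The count at 2-fold was 63 without that term. The 2-fold falls numbered 10 with no filter on low counts, 6 with only the compared groups and 0 without replicate 3.

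**Figure D1:**
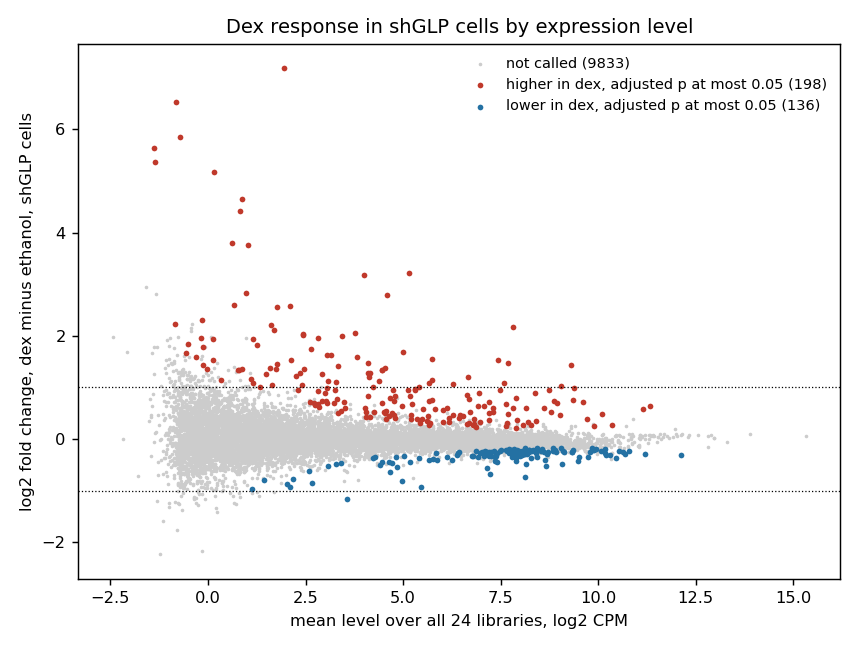
Log2 fold change of dex over ethanol in shGLP cells (y axis) against the mean level over all 24 libraries in log2 CPM (x axis), with 1 point per tested transcript and dotted lines at 2-fold. The 198 rises spread from below to far above 2-fold, while the 136 falls sit close to 0 at high levels and only IL1B passes the lower line.

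The largest rises included receptors that were almost silent in ethanol. OR7A5, an olfactory receptor gene (GRCh37, chromosome 19, 14937053 to 14945997), had 0, 0.0924 and 0 CPM in the ethanol libraries of replicates 1 to 3 and 8.58, 5.79 and 4.76 CPM in the dex libraries. Summed over the 3 libraries this was 1 read against 196, a ratio of 195 (95% interval 34.7 to 7760, counting error only). The gene overlaps OR7C1, another olfactory receptor gene on the same strand, which also rose (log2 fold change 5.86, edgeR adjusted p = 0.00798), and reads of these related genes may have been split between them. GHRHR, the receptor for growth hormone-releasing hormone, had 0, 0.0924 and 0.0947 CPM with ethanol and 3.28, 2.71 and 2.24 CPM with dex (2 reads against 85, ratio 42.4, interval 11.4 to 356). P2RY14, a G protein-coupled receptor for UDP-sugars, had 2 reads against 59 (ratio 29.4, interval 7.79 to 249). In all 3 genes every dex library lay above every ethanol library. P2RY14 and GPR171, another G protein-coupled receptor, are neighbours on chromosome 3 inside MED12L, which lies on the other strand. GPR171 had 0.578 ± 0.248 CPM with ethanol and 3.44 ± 0.479 CPM with dex (SD over 3 replicates), and its log2 fold change was 2.59 (SE 0.65, edgeR adjusted p = 0.0258, and 0.0782 without the replicate term). MED12L had a log2 fold change of 0.85 (SE 0.65) and was not called.

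Several regulators were among the largest rises, from different starting levels. TSC22D3, which encodes the glucocorticoid-induced leucine zipper GILZ (GRCh37, chromosome X, 106956451 to 107020572), had 6.57, 6.66 and 3.12 CPM in the ethanol libraries and 56.0, 56.4 and 39.5 CPM in the dex libraries of NM_004089. Its groups were far apart, with a log2 fold change of 3.23 (SE 0.17, edgeR adjusted p = 2.16e-11). KLF2, a transcription factor linked to lymphocyte quiescence (chromosome 19, 16435637 to 16439496), had 2.16, 2.22 and 1.99 CPM with ethanol and 21.4, 20.2 and 15.9 CPM with dex. The change was 3.17 on the log2 scale (SE 0.42, edgeR adjusted p = 2.43e-05), and all dex libraries were above all ethanol libraries. ISG20, an interferon-induced exonuclease, went from a low 0.255 ± 0.0998 to 3.68 ± 1.12 CPM. RASSF4, which encodes a Ras-association domain protein (chromosome 10, 45454855 to 45491339), had 6.88, 7.30 and 3.03 CPM with ethanol and 42.3, 41.3 and 34.3 CPM with dex, a log2 fold change of 2.78 (SE 0.20, edgeR adjusted p = 2.55e-09). It overlaps C10orf10 (DEPP1) on the opposite strand, which also rose (log2 fold change 1.15, edgeR adjusted p = 2.60e-05), and the strand setting of the counting is not given in the sources used here.

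Noncoding transcripts were among the largest rises as well. The antisense transcript GSN-AS1 rose from 0.128 ± 0.0532 to 3.02 ± 0.712 CPM (log2 fold change 4.43, SE 0.48, edgeR adjusted p = 1.10e-06). Its sense partner GSN, an actin-severing protein gene, had a log2 fold change of 2.81 that was not called (SE 0.91, edgeR adjusted p = 0.102). DIP2C-AS2 rose by 2.59 on the log2 scale (SE 0.33) and its partner DIP2C by 0.61 (SE 0.07), and without strand information reads of such pairs cannot be told apart. LINC00319 and LOC400553 rose by 3.79 (SE 0.58) and 2.82 (SE 0.45), from means of 0.131 and 0.319 CPM.

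GR dimers bind a DNA element in which a pair of short sites face each other across a 3-base spacer. A core of that arrangement, GNACA and TGTNC with 3 free bases between them (its own reverse complement, so a single search covers both strands), was looked for in the RefSeq promoter windows of GRCh38.p14, which span 250 bases before to 50 bases after each start. It lay in 0.390% of all 35116 windows, and in the windows of 131 of 27305 genes (0.480%). Among the tested genes with a window, 21 of 6969 (0.301%) held it. Of the 57 genes with a window among those that rose at least 2-fold in shGLP cells, 4 held it, namely CHST7, LINC00689, OR7A5 and OR7C1. OR7A5 and OR7C1 overlap and may share reads, so they are not separate cases. Among all genes that rose, 5 of 147 did, with TXNIP as the fifth, and among those that fell, 0 of 109. The full form, AGAACA and TGTTCT with the same spacer, was in no window of a tested gene. Most risen genes therefore hold no such core in this window, which says nothing about more distant sites. The 250 bases upstream of the start are shown for OR7A5, the largest rise, and TXNIP, a called classic GR target, with the core match in capitals. The OR7A5 sequence lies at chr19:14835186-14835435 (minus strand) in GRCh38.p14 and was found once in GRCh37, at chr19:14945998-14946247 (minus strand), with the match ending 155 bases before the start. That of TXNIP lies at chr1:145996580-145996829 (minus strand) in GRCh38.p14 and at chr1:145438240-145438489 (plus strand) in GRCh37, with the match ending 162 bases before the start.
OR7A5: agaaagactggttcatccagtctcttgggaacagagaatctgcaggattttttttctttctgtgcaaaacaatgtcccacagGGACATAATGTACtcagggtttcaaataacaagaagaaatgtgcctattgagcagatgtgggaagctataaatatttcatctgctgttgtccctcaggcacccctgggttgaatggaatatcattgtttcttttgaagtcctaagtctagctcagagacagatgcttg
TXNIP: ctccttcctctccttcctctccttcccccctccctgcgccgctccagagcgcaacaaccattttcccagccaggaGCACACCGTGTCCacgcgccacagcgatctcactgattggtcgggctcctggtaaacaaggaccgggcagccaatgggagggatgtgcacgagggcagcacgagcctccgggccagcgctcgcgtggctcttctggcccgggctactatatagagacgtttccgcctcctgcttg

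The falls were smaller. IL1B, an inflammatory cytokine (chromosome 2, 113587328 to 113594393), had 29.7, 24.7 and 21.7 CPM in the ethanol libraries and 12.6, 12.7 and 8.68 CPM in the dex libraries. The groups did not overlap, and the log2 fold change was -1.17 (SE 0.17, edgeR adjusted p = 9.57e-05). The potassium channel gene KCNJ2 went from 54.1 ± 5.39 to 28.5 ± 2.68 CPM (log2 fold change -0.92, SE 0.14, edgeR adjusted p = 0.000161). ID3, an inhibitor of E-protein transcription factors that guide B-cell development (chromosome 1, 23884417 to 23885992), had 384, 378 and 370 CPM with ethanol and 239, 231 and 209 CPM with dex. Its fall was 0.74 on the log2 scale with tight replicates, at a log2 fold change of -0.74 (SE 0.07, edgeR adjusted p = 7.42e-08). IL7R, a chain of the interleukin-7 receptor, fell from 32.4 ± 1.41 to 20.9 ± 1.68 CPM (log2 fold change -0.63, SE 0.12, edgeR adjusted p = 0.00187). PHLDA1 (-0.82), DDN (-0.68), LRRC2 (-0.85), the noncoding PICSAR (-0.86), the sodium channel gene SCN4A (-0.93), BEND4 (-0.96) and HYDIN (-0.80) were the remaining falls of the 12 largest together with CCND3. HYDIN has a near-identical copy elsewhere in the genome, so its counts are uncertain. Of these 12, BEND4, SCN4A, PICSAR, LRRC2, PHLDA1, HYDIN and CCND3 had adjusted p values of 0.0524 to 0.328 without the replicate term.

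**Figure D2:**
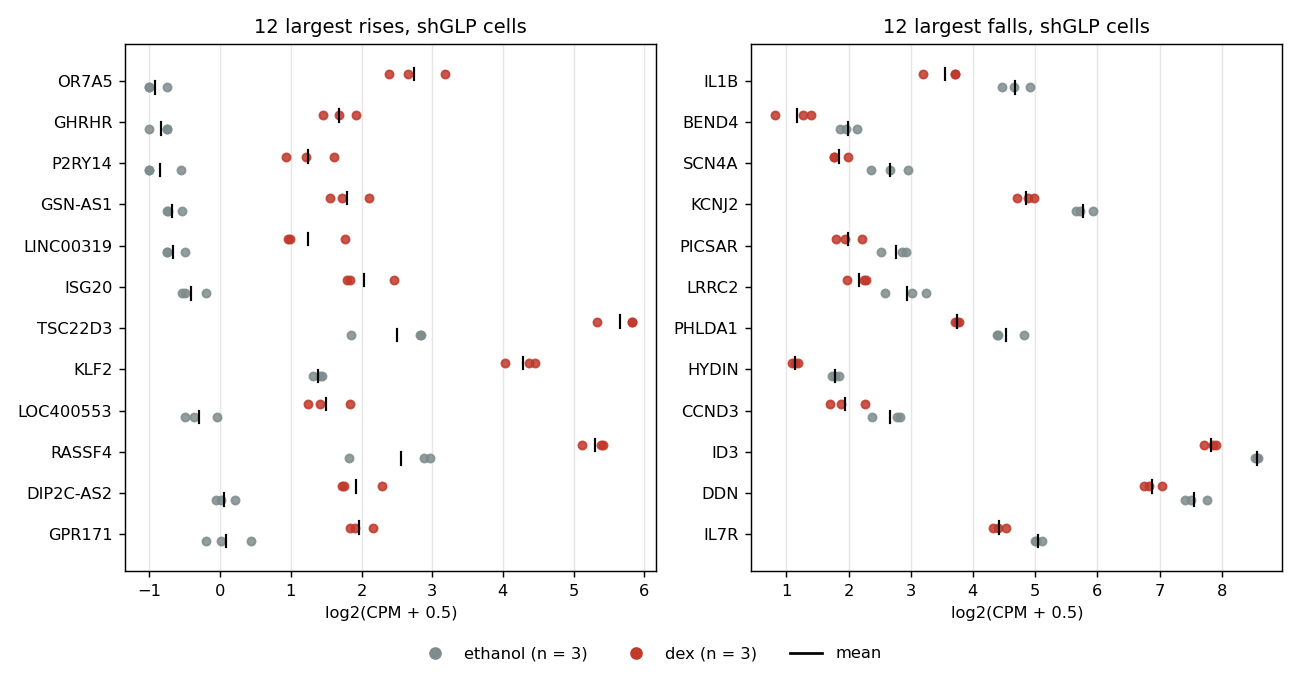
Level in each shGLP library as log2(CPM + 0.5) (x axis) for the 12 largest rises (left) and the 12 largest falls (right), with grey points for the 3 ethanol libraries, red points for the 3 dex libraries and black bars for the means. Dex and ethanol libraries are separate in every row, and the gap is wider for the rises. The genes were chosen on this difference, so the separation is no independent result.

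Most tested classic GR targets rose. Counted by the most abundant transcript of each gene, 12 of 19 tested members rose and 1, IL7R, fell, with a median log2 fold change of 0.74, against 1.99% and 1.45% of all 9391 genes and a median of -0.01. SOCS1, a feedback inhibitor of cytokine signalling, had 4.01, 4.99 and 4.64 CPM with ethanol and 20.9, 17.3 and 19.0 CPM with dex (log2 fold change 2.06, SE 0.18, edgeR adjusted p = 5.16e-08). DDIT4, an inhibitor of mTORC1, had 319, 458 and 284 CPM with ethanol and 1007, 932 and 858 CPM with dex (log2 fold change 1.43, SE 0.16, edgeR adjusted p = 3.40e-06). FKBP5, the GR co-chaperone that GCs induce as a feedback on the receptor, rose from 10.0 ± 1.87 to 23.2 ± 6.82 CPM in NM_001145777 (log2 fold change 1.199, SE 0.15). Every dex library of these genes exceeded every ethanol library. The clock gene PER1 rose by 0.80 (SE 0.08), KLF9, a GC-induced transcription factor, by 0.84 (SE 0.09), NFKBIA, the inhibitor of NF-kB, by 0.69 (SE 0.07), the chemokine receptor gene CXCR4 by 0.74 (SE 0.19) and the metallothionein gene MT1X, whose close relatives may share its reads, by 0.49 (SE 0.06). The 6 members not called were DUSP1 (0.04, SE 0.10), ERRFI1 (0.14), GLUL (0.67, SE 0.25), CRISPLD2 (0.24), MT2A (0.20) and IRS2 (-0.07), and a further 6 could not be tested, 2 of them because all their accessions were at 0. The receptor gene NR3C1 itself could be followed only in NM_001204265, at 1.10 ± 0.403 CPM with ethanol and 2.20 ± 1.61 CPM with dex (log2 fold change 0.97, SE 0.45, edgeR adjusted p = 0.319), with overlapping libraries. FKBP5 was the only called gene among 12 tested members of the receptor's chaperones and coregulators.

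Some antiproliferative genes rose. Of 14 tested growth arrest genes, 4 rose, against 1.99% of all genes, and 0 fell. BTG1, an antiproliferative cofactor of mRNA decay, had 339, 372 and 342 CPM with ethanol and 746, 689 and 655 CPM with dex, a log2 fold change of 0.99 (SE 0.08, edgeR adjusted p = 2.43e-08). Its relative BTG2 rose from 241 ± 32.8 to 446 ± 33.8 CPM (0.89, SE 0.10), the MYC antagonist MXD4 by 0.65 (SE 0.12) and the CDK4-binding SERTAD1 by 0.84 (SE 0.13). The last of these is known to promote as well as restrain CDK4 activity. The CDK inhibitor genes CDKN1B (0.18, SE 0.09) and CDKN2C (0.05, SE 0.07) were not called. Of 18 DNA replication genes and 16 mitosis genes, 0 were called in either direction, with medians of -0.15 and -0.03, which is near the 3.44% called among all genes and no result about these lists. Among the D cyclins and their kinases, 1 of 4 fell, the cyclin D3 transcript NM_001287427 of CCND3 (-0.78, SE 0.21), a fall that was not called when the accessions of the gene were summed (-0.46, edgeR adjusted p = 0.320). CDK4 had -0.25 (SE 0.09) and CDK6 -0.76 (SE 0.31), both not called.

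Among 7 tested BCL2-family genes, BCL2, the antiapoptotic founder of the family (GRCh37, chromosome 18, 60790579 to 60987361), was the single call, beside 3.44% called among all genes. BCL2 had 304, 298 and 315 CPM with ethanol and 216, 215 and 223 CPM with dex, a log2 fold change of -0.49 (SE 0.07, edgeR adjusted p = 4.03e-05), with no overlap between the groups. The proapoptotic PMAIP1 (0.02, SE 0.07), BIK (0.02, SE 0.14) and BAK1 (0.04, SE 0.07) stayed within 1 SE of 0, and BBC3 had -0.91 (SE 0.41, edgeR adjusted p = 0.300) at under 2 CPM. BCL2L11 (BIM) and BMF, known GC-responsive killers in lymphoid leukemia, were among 10 members with no tested transcript. Why these were not tested, low expression or the way reads were counted, cannot be told apart. In the table as a whole, 93.7% of all counts lie on accessions that are the only one of their gene, and 50.8% of 8274 single coding accessions had more than 1 CPM, against 6.61% of 40658 that share a gene with others.

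Falls on the lists of ribosome biogenesis and metabolism were few and small. Of 18 genes of MYC and the nucleolus, 4 fell, against 1.45% of all genes, and 0 rose, with a median of -0.22. NCL, the abundant nucleolar protein nucleolin, had 4734, 5074 and 5516 CPM in the ethanol libraries and 3928, 4286 and 4216 CPM in the dex libraries (log2 fold change -0.30, SE 0.07, edgeR adjusted p = 0.0117). WDR43 (-0.28), RRP9 (-0.33) and MRTO4 (-0.29), factors of ribosomal RNA processing, were the others. Lower values with dex than with ethanol were found within each replicate number for these 4, but the libraries of WDR43 overlapped across numbers, and without the replicate term the 4 had adjusted p values of 0.270 to 0.568. Single genes fell in the amino acid response (MARS, methionyl-tRNA synthetase, -0.25, 1 of 21), in glycolysis (HK2, hexokinase 2, -0.42, 1 of 16) and in sterol synthesis (SQLE, squalene epoxidase, -0.22, 1 of 12), shares near the 1.45% of all genes that fell, and these too were not called without that term. In shNS cells, 12 of the 21 amino acid response genes fell, beside 546 of all 9391 genes. The list's median there was -0.41, against -0.24 in shGLP cells. None of these 21 differed between the cell populations when the difference itself was tested.

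The remaining lists gave few calls. Among all 9391 genes, 3.44% were called, 1.99% higher and 1.45% lower. Short lists with no call or a single call are near that share and are no result about their members. In the NF-kB list 2 rose and 2 fell of 8 (NFKBIA and the activation marker CD69 up, IL1B and NFKBIB down), in MAPK feedback 2 of 11 rose (DUSP10, 0.89, and DUSP6, 0.35), and in cytokine feedback SOCS1 and SOCS2 (1.37) rose and IL7R fell of 10. Of 11 Kruppel-like factors, KLF2, KLF9 and KLF13 (0.69) rose. Of 12 FOXO-type and arrestin-domain genes, TXNIP and DDIT4 rose, whereas ARRDC4 had -0.46 (SE 0.13, edgeR adjusted p = 0.0599). Among 11 B-lineage factors ID2 rose (0.58) and ID3 and POU2AF1 (-0.28) fell, and among 9 surface antigens CD72 (0.50) and CXCR4 rose and IL7R fell. IER2 (-0.45) was the call among 7 immediate early genes, PER1 among 10 clock genes and ISG20 among 14 interferon-stimulated genes. No call was made among 8 pre-B receptor genes, 2 V(D)J recombination genes (RAG1, 0.07, SE 0.10), the 1 tested MHC class II gene or 13 genes of histone H3 lysine 9 methylation. POU2AF1, CD72, DUSP6, CD69 and NFKBIB were not called without the replicate term.

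**Figure D3:**
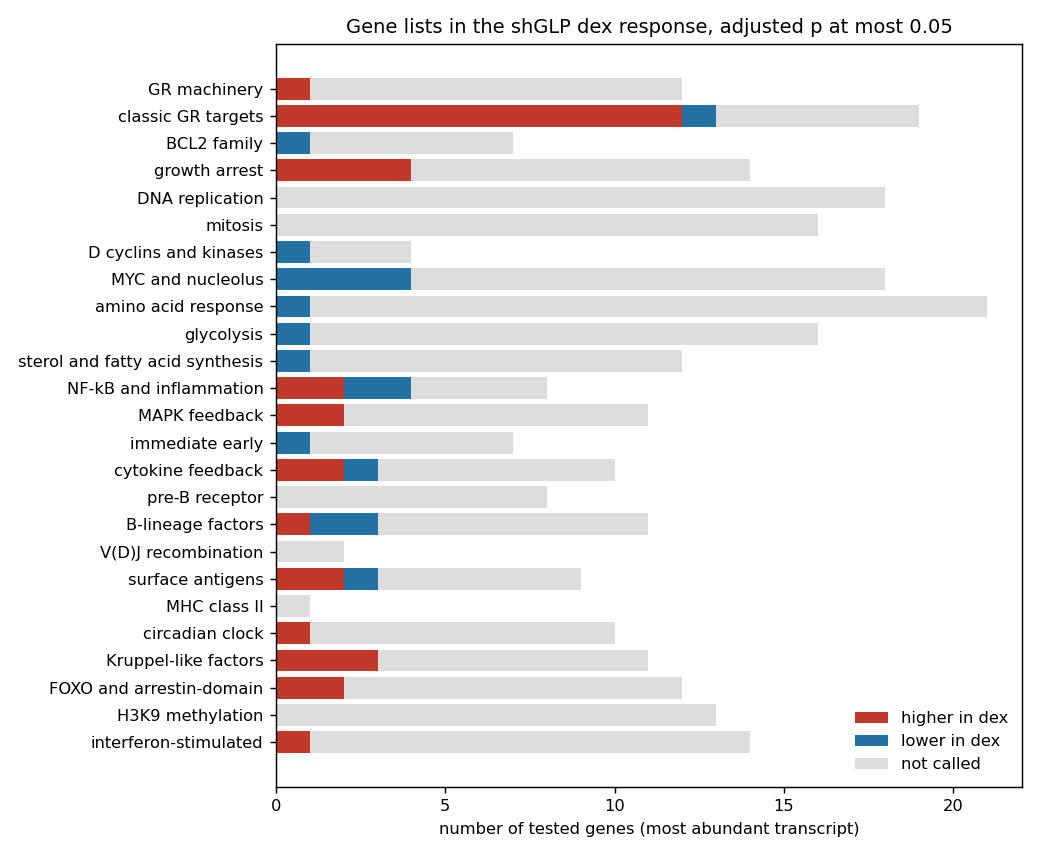
Number of tested genes per list (x axis, by most abundant transcript) that were higher in dex (red), lower in dex (blue) or not called (grey) in shGLP cells at an adjusted p of at most 0.05. Classic GR targets have 12 rises of 19. The DNA replication, mitosis and lysine 9 methylation lists have no call, which is near the 3.44% called among all genes and no result about them.

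The response of shGLP cells was set beside those of the other populations, which use separate libraries. Dex changed 1012 transcripts (9.95%) in shNS, 634 (6.24%) in shG9a and 327 (3.22%) in shHP1γ cells, against 334 in shGLP cells. At 2-fold or more the numbers were 194 (1.91%), 126 (1.24%) and 90 (0.885%), against 85. The median SE of the log2 fold changes was 0.18 in all 4 populations. The populations share a single estimate of the spread and have 3 replicates each, so near-equal SEs were built in and are no finding about precision. Of the 334 shGLP calls, 319 were also called in the same direction in shNS cells, which is 95.5% of the shGLP calls and 31.5% of the shNS calls, and 333 had the same sign. The shared calls were 233 with shG9a (69.8% and 36.8%) and 235 with shHP1γ (70.4% and 71.9%), and 201 were called in all populations. Across all tested transcripts the shGLP and shNS fold changes had a Pearson r of 0.58, and of 0.86 over 5606 transcripts with at least 5 CPM, as a description across transcripts, which are not independent. The 15 calls not made in shNS cells included HK2, SCN4A and BEND4. BEND4 had 3.90, 3.14 and 3.41 CPM with ethanol and 1.27, 1.90 and 2.15 CPM with dex in shGLP cells, while its log2 fold change was -0.96 (SE 0.26) there and -0.07 (SE 0.27) in shNS cells, yet the difference did not pass the test (edgeR adjusted p = 1).

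The study judged which dex responses depend on GLP by the levels in dex-treated cells. The test used here was of another quantity, the difference between the shGLP and the shNS response, and does not repeat the study's comparison. It was passed by 12 of 10167 transcripts (0.118%), while 395 had an unadjusted p below 0.05. All 12 changed less in shGLP cells: 10 (0.0984%) rose less and 2 (0.0197%), ID3 and CD180, fell less. CYTH3, an exchange factor for ARF GTPases (GRCh37, chromosome 7, 6201410 to 6312275), had 96.3, 105 and 98.4 CPM with ethanol and 193, 184 and 201 CPM with dex in shGLP cells, and 118, 120 and 118 against 387, 400 and 448 CPM in shNS cells. Every dex library of shNS cells lay above every dex library of shGLP cells, and so did their ethanol libraries by a smaller margin. Its log2 fold change was 0.95 (SE 0.09) in shGLP and 1.79 (SE 0.09) in shNS cells, a difference of -0.85 (SE 0.12, edgeR adjusted p = 0.00598).

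RASSF4 showed the largest difference, -1.58 (SE 0.30, edgeR adjusted p = 0.0273). It reached 42.3, 41.3 and 34.3 CPM with dex in shGLP cells and 68.3, 69.9 and 73.7 CPM in shNS cells, where its ethanol level was 2.78, 4.05 and 3.49 CPM. MCAM, the cell adhesion molecule CD146 (chromosome 11, 119179239 to 119192231), had 563, 553 and 585 CPM with ethanol and 900, 974 and 921 CPM with dex in shGLP cells, and 544, 547 and 554 against 1170, 1227 and 1237 CPM in shNS cells. The dex levels of the populations did not overlap, a difference of -0.43 (SE 0.07, edgeR adjusted p = 0.00602). CDC42EP2, an effector of the GTPase CDC42, reached 28.5, 25.5 and 29.8 CPM against 47.3, 42.5 and 49.6 CPM (difference -0.81, SE 0.13, edgeR adjusted p = 0.00602). The butyrophilin-like gene BTNL9 (-0.87, SE 0.15) reached 37.8, 25.1 and 31.7 CPM with dex in shGLP cells against 49.8, 46.6 and 52.1 CPM in shNS cells. C1orf186, the erythropoietin receptor partner RHEX (-0.87, SE 0.16), reached 69.4, 65.0 and 80.5 CPM against 112, 132 and 156 CPM. These 3 genes had similar ethanol levels in both populations, within 0.21 on the log2 scale. DISP3 (-0.76, SE 0.14), FAM53B (-0.61, SE 0.12), METTL7A (-0.57, SE 0.11) and BOD1L1, a factor that protects replication forks (-0.36, SE 0.07), complete the smaller rises. BOD1L1 was not called in shGLP cells at all, at 0.11 (SE 0.05), and rose by 0.47 (SE 0.05) in shNS cells.

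ID3 fell to 239, 231 and 209 CPM in shGLP cells and to 126, 117 and 112 CPM in shNS cells, from 302, 296 and 300 CPM in the latter (difference 0.60, SE 0.09, edgeR adjusted p = 0.00602). CD180, a Toll-like receptor relative on B cells, had 103, 91.7 and 85.8 CPM with ethanol and 92.0, 87.7 and 68.1 CPM with dex in shGLP cells, a log2 fold change of -0.18 (SE 0.07) that was not called. In shNS cells it went from 56.0, 45.8 and 44.4 to 32.8, 28.4 and 24.01 CPM (-0.78, SE 0.08), and its ethanol level was already 0.94 higher on the log2 scale in shGLP cells (edgeR adjusted p = 1.1e-08). Ethanol levels were also higher in shGLP cells for ID3, by 0.33 (edgeR adjusted p = 0.0028), and for METTL7A, by 0.35 (edgeR adjusted p = 0.0092). RASSF4, with the largest difference, had a higher ethanol mean in shGLP than in shNS cells, 5.74 against 3.44 CPM, but its ethanol libraries overlapped. The part of these higher starting levels in the differences in response was not tested. Without the replicate term the difference was called for 1 gene, CYTH3 (edgeR adjusted p = 0.0128). When all libraries of replicate 2 were left out, 0 of the 12 were called, and 1 without replicate 3, with all 12 keeping their sign in all 18 alternatives. CYTH3 was called in 16 of 18 of these alternatives, ID3 in 15, CDC42EP2 in 14, and BOD1L1 and FAM53B in 7.

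**Figure D4:**
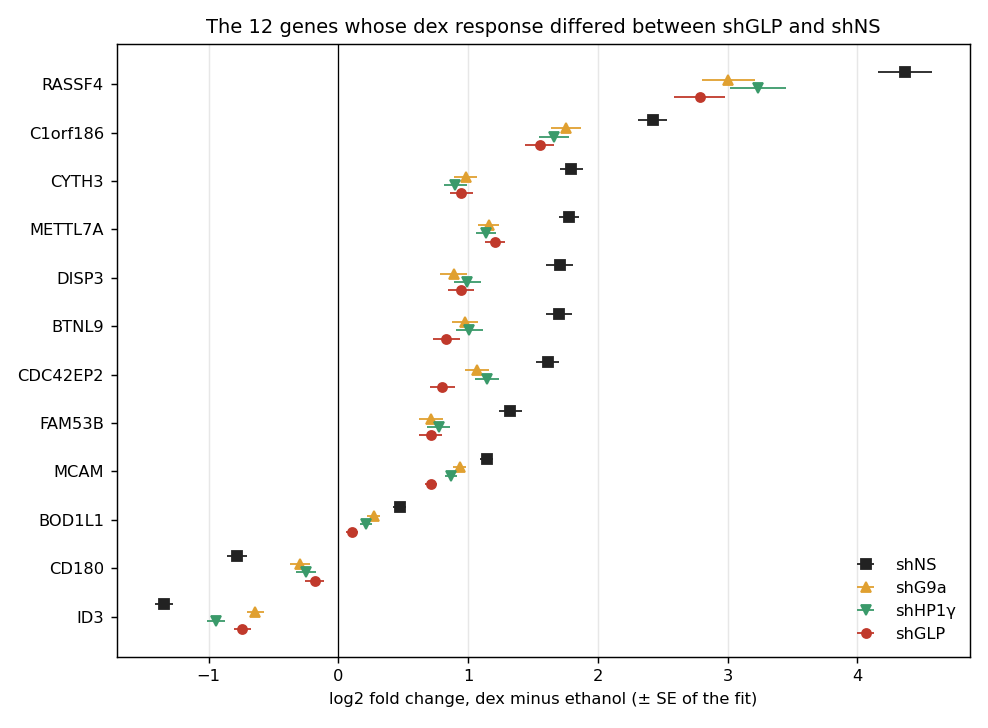
Log2 fold change of dex over ethanol (x axis, bars show ± SE of the fit) for the 12 genes whose response differed between shGLP and shNS, in shNS (black squares), shG9a (orange triangles), shHP1γ (green triangles) and shGLP cells (red circles). In each row the shNS value is the farthest from 0. The choice of these genes required shGLP and shNS to differ, in either direction, so the distance between them is no independent result.

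In the same 12 genes, shG9a and shHP1γ cells also gave smaller responses than shNS cells. CYTH3 rose by 0.98 in shG9a and 0.90 in shHP1γ cells, next to 0.95 in shGLP cells, and RASSF4 by 3.00 and 3.23, next to 2.78. ID3 fell by 0.64 and 0.94, next to 0.74. The shNS libraries took part in choosing these genes, so the distance of the shNS values is no independent result. When the shGLP response was compared with the shG9a response, 0 transcripts passed (edgeR, smallest adjusted p = 0.902) and 513 had an unadjusted p below 0.05. Against the shHP1γ response 0 passed and 196 had an unadjusted p below 0.05. DESeq2 and limma called 0 in both, and edgeR with no filter on low counts called 34 and 3. These counts do not show that the 3 responses are alike.

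The size of the response was also compared over transcripts that were not chosen on the shGLP or shNS response. The shGLP and shNS libraries still entered the choice indirectly, because the fit shared its filter, spread and replicate terms over all 24 libraries. Transcripts called at 2-fold or more in both shG9a and shHP1γ cells were taken. There were 68, of which 67 rose, and 60 were called in shGLP cells and 68 in shNS cells. Their median log2 fold change was 1.53 in shGLP and 2.21 in shNS cells, and 59 of 68 were smaller in shGLP than in shNS cells. The medians were 1.63 in shG9a and 1.48 in shHP1γ cells. The choice used these responses and favours large values there, so they are no measure of likeness to shGLP cells. Calculated within each replicate on the log2(CPM + 0.5) scale, the medians were 1.43, 1.26 and 1.41 in shGLP and 1.79, 1.78 and 1.87 in shNS cells, so the populations did not overlap. The design of 3 replicates against 3 cannot reach a p below 0.1 in a permutation test, and none was run. With each population fitted alone, 48 transcripts were chosen, with medians of 1.55 in shGLP and 2.26 in shNS cells. Without the 2-fold requirement, 251 transcripts gave medians of 0.60 and 0.84 in size, and 223 were smaller in shGLP cells. The 180 rises among these had medians of 0.79 and 1.11, and the 71 falls 0.31 and 0.42. The median was thus smaller in shGLP cells for rises and for falls. Transcripts that lost their response in shG9a or shHP1γ cells are not in this choice.

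**Figure D5:**
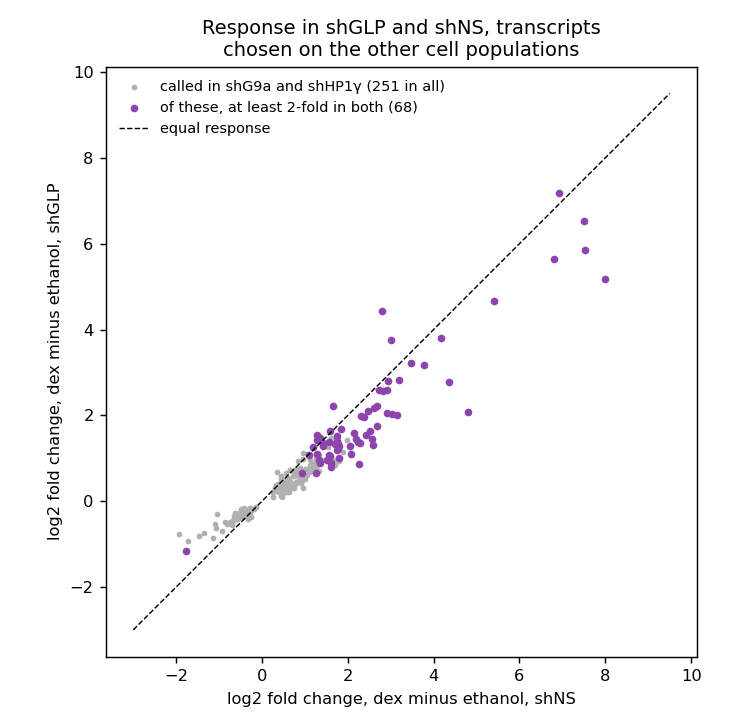
Log2 fold change of dex over ethanol in shGLP cells (y axis) against shNS cells (x axis) for the 251 transcripts called in both shG9a and shHP1γ cells, with the 68 that changed at least 2-fold in both in purple. Most rises lie below the dashed line of equal response and most falls above it, that is, nearer to 0 in shGLP cells.

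The genes that the study measured by RT-qPCR were chosen on these libraries, so their values in these libraries are no independent evidence. By RT-qPCR in independent experiments, the study reports lower levels of TXNIP, TSC22D3 and LILRA2 in dex-treated cells after GLP depletion. It reports no such effect for the genes it classed as independent of GLP, namely LDLRAD4, ARHGAP6 and ZNF831. TXNIP, which binds thioredoxin and restrains glucose uptake, had 20.4, 22.2 and 20.4 CPM with ethanol and 45.9, 43.0 and 34.2 CPM with dex in shGLP cells (log2 fold change 0.95, SE 0.10, edgeR adjusted p = 7.23e-07), against 29.9, 25.6 and 20.9 and then 70.8, 70.7 and 58.9 CPM in shNS cells. The dex libraries of the populations did not overlap, but the difference in response, -0.44 (SE 0.14), did not pass over all transcripts (edgeR adjusted p = 0.631). For TSC22D3 that difference was -0.25 (SE 0.25) and for LILRA2, an immune receptor of a family with similar sequences, -0.57 (SE 0.71), at 0.327 CPM with ethanol and 1.64 CPM with dex. LDLRAD4 rose by 1.04 (SE 0.22) and ZNF831 by 1.13 (SE 0.27) in shGLP cells, and neither was called without the replicate term. ZNF831 had 11.0, 11.5 and 10.0 CPM with ethanol and 22.5, 25.5 and 22.8 CPM with dex in shGLP cells, without overlap. The fit shares its spread with all groups, and the ethanol library of shHP1γ replicate 1 stood at 32.8 CPM against 14.8 and 11.2 CPM. The part of that replicate in the lost call was not tested. ARHGAP6 had 0.79 (SE 0.22, edgeR adjusted p = 0.0531) in its more abundant transcript NM_001287242 and 1.08 (SE 0.29, edgeR adjusted p = 0.0352) in NM_006125. The latter was not called without the replicate term (edgeR adjusted p = 0.201) or in any fit that left out replicates (0.0514 to 0.294). Of these 6 genes, 0 differed in response between shGLP and shNS cells. The study defined GLP dependence by another measure, the level in dex-treated cells, so this count is not a test of its classes. By level, the dex libraries of TSC22D3 did not overlap, at up to 56.4 CPM in shGLP and at least 81.4 CPM in shNS cells. Those of LILRA2, LDLRAD4, ZNF831 and ARHGAP6 overlapped in their more abundant transcripts.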

How the data were processed

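RNA-seq was carried out on 24 Nalm6 libraries of 8 conditions with 3 replicates each. The authors trimmed paired-end reads, used HISAT2 to map them to hg19 (GRCh37) and GenomicAlignments to quantify RefSeq transcripts. The counting mode, the use of strand and tool versions are not given in the sources used here. The deposited table is named for CPM but holds whole-number counts per RefSeq accession with unequal totals (9289533 to 14387770 per library, which limits transcripts of a few counts), and was used as raw counts. A second deposited table, with fold changes and adjusted p values of the authors' own comparisons, was used only for its gene symbols. It paired accessions with symbols for all but 8 of the tested transcripts.

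These counts entered edgeR 4.0.16 (quasi-likelihood F test, R 4.3.3) in a single fit of all 24 libraries, with terms for the 8 groups and for the replicate number, upper quartile factors and the study's filter, above 1 CPM in 2 or more libraries. This left 10167 transcripts of 9391 genes. Benjamini-Hochberg adjustment ran over all tested transcripts. The replicate term stands in place of the authors' removal of unwanted variation. The labels place replicates on different days without saying which, and the deviations of dex and ethanol libraries from their shGLP group means correlated at 0.31, 0.22 and 0.51 in replicates 1, 2 and 3. Replicates were no copies of each other (chi-squared per degree of freedom of 3.41 to 12.1 between shGLP replicates). The scripts were tested on simulated data.

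The genes named are the 12 largest rises and 12 largest falls among calls with a mean of at least 1 CPM and the same direction in 3 of 3 replicates, up to 4 called members per gene list, other list members whose role made a value useful, the genes that differed from shNS, the shRNA targets, NR3C1 and the study's RT-qPCR genes. OR7C1, C10orf10, MED12L, GSN and DIP2C were added as overlapping genes, and CHST7 and LINC00689 for the promoter match, after values were seen. The members and lists were chosen with earlier results of these data known. Alternatives were DESeq2 1.42.0, limma 3.58.1 on log2(CPM + 0.5), TMM factors, no replicate term, residual factors, only the compared groups, other filters, summed accessions and left-out replicates. Intervals and limits cover counting error only. Promoter sequences are those of RefSeq for GRCh38.p14 and gene positions those of GENCODE for GRCh37.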

Additional observations from a re-analysis of the deposited data

Results flagged for a closer look

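The dex response differed between shGLP and shNS cells, by the test of the difference itself, for 12 transcripts. The differences, given as the shGLP minus the shNS response on the log2 scale, were -1.58 for RASSF4, -0.87 for BTNL9, -0.87 for C1orf186, -0.85 for CYTH3, -0.81 for CDC42EP2, -0.76 for DISP3, -0.61 for FAM53B, -0.57 for METTL7A, -0.43 for MCAM, -0.36 for BOD1L1, 0.60 for ID3 and 0.60 for CD180. In each case the response of shGLP cells was nearer to 0. Groups of 3 libraries are too small for a search for single outlying libraries.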

How the results depend on the processing

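The number of calls depended on the model more than their direction did. The count at 2-fold, 85, was 56 with DESeq2 and 45 with a mean of at least 5 CPM, and ran from 44 (without replicate 3) to 86 when replicates or single shGLP libraries were left out. The count without a fold requirement, 334, was 147 with no replicate block, 588 with 2 residual factors in place of the block and 820 with only the libraries of the compared groups, and from 86 (without replicate 3) to 275 with replicates left out. The share of calls that were higher was 59.3%, against 81.6% with no block, 48.3% with residual factors, 45.2% with only the compared groups, 66.7% with TMM factors and 90.7% without replicate 3. For the difference from shNS, 12 calls became 23 with DESeq2, 1 with no replicate block, 20 with residual factors, 107 with only the compared groups and 23 with no filter on low counts, and 0 (without replicate 2) to 10 with replicates left out. The differences from shG9a and shHP1γ gave 34 and 3 calls with no filter on low counts. The EHMT1 difference of -0.51 lost its call with DESeq2 (-0.54) and with no replicate block (-0.51), was -0.65 to -0.29 with replicates left out, and lost its call there without replicate 1, 2 or 3, shGLP dex replicate 1 or 2 and shGLP ethanol replicate 2 (adjusted p 0.0538 to 0.374). With a mean of at least 5 CPM it was not tested. The gap between the shNS and shGLP medians over transcripts chosen on the other populations, 0.682, was 0.402 with DESeq2, 0.385 with a mean of at least 5 CPM, 0.536 with limma, 0.237 without the 2-fold requirement and 0.476 to 0.676 with replicates left out. Sign changes among the named transcripts were limited to CBX3, never called: NM_016587 went from -0.12 to 0.063 with accessions summed and ran from -0.268 to 0.031 (without dex replicate 2) with replicates left out, and NM_007276 went from 0.27 to between -0.015 (without replicate 3) and 0.734. DESeq2 gave no adjusted p for 16 of the named values. The causes of these shifts were not tested. Transcripts of a few counts per library, and genes whose reads fall on accessions not tested, are limited by depth and counting.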
